A study of Arabidopsis thaliana with 12 samples.

Results

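The comparison described here set trb45 line 2 against wild type in Arabidopsis thaliana seedlings, with 3 libraries of each, 6 of the 12 libraries of the series. Line 2, labelled trb45 N°2, is 1 of 2 independently made lines mutated in TRB4 and TRB5, and the wild type (WT) is Col0. Its alleles, how it was made and the number of plants per library are not given in the sources used here. Both groups were untreated whole seedlings aged 7 days, grown on sucrose plates in long days, and polyadenylated RNA was sequenced from stranded libraries. The other 6 libraries are trb45 line 1 and the triple mutant trb123; they entered the estimate of the spread, and line 1 values stand beside the main results. Values are FPKM, fragments scaled by gene length and sequencing depth, for 20262 genes listed for both line 2 and WT.

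TRB proteins carry a Myb domain that binds telomeric repeats and a linker histone-like domain. They also bind the telobox, a short motif that resembles the plant telomere repeat and lies in many promoters. TRB1, TRB2 and TRB3 are known to recruit Polycomb repressive complex 2 (PRC2), which deposits the repressive histone mark H3K27me3. The study asked what TRB4 and TRB5 do in gene expression.

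Depth, inferred from the steps between low FPKM values, was 24127200 to 24357100 fragments in line 2 and 22588700 to 23588900 in WT. Pearson's r across genes between replicates was 0.9832 to 0.9916 in line 2 and 0.9911 to 0.9927 in WT. The leaf genes RBCS1A, LHCB1.1 and RCA summed to 31210.24 to 33769.73 FPKM in line 2 and 35123.25 to 37837.1 FPKM in WT. Most of this sum was RBCS1A. By gene, log2 differences from WT ran from -0.3 (RBCS1A) to 0.29 (LHCB1.1), with a median of 0.26. The 5 root markers summed to 1210.26 to 1684.08 FPKM in line 2 and 977.94 to 1159.42 FPKM in WT, so both shoot and root RNA were present. In RNA from whole seedlings, fewer cells of a type and less RNA per cell cannot be told apart.

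The libraries fell into sets that the labels do not name. Replicate 3 of line 1 lay 1 or more log2 units under its replicates 1 and 2 for 226 genes. On a scale where line 1 replicates 1 and 2 lie at 0 and line 1 replicate 3 at 1, these genes had median positions of 0.93, 0.99 and 0.93 in the line 2 libraries and 0.01, 0.02 and -0.02 in the WT libraries. The trb123 libraries were at 0.9, 0.86 and 0.87 and were placed in the same set as line 2. Every line 2 library therefore lay with line 1 replicate 3, and every WT library with line 1 replicates 1 and 2. For line 2 against WT the set and the genotype cannot be told apart. A fit with a term for the set rests on that single line 1 library; its outcome is given beside the main results as "with the set term".

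The mutated genes were examined first. TRB5 (AT1G72740, chr1:27380260-27382924) had 3.3, 3.11 and 2.96 FPKM in line 2, against 12.54, 11.82 and 11.04 FPKM in WT. All 3 line 2 libraries lay below all WT libraries, with means of 3.12 ± 0.17 and 11.8 ± 0.75 FPKM (SD, n = 3 each), a log2 difference of -1.63 (SE 0.1, limma adjusted p = 2.08e-06). With the set term it was -1.77 (adjusted p = 0.00142). TRB4 (AT1G17520, chr1:6024636-6027565) had 4.89, 4.45 and 6.1 FPKM in line 2, against 11.04, 8.37 and 8.16 FPKM in WT. These libraries did not overlap either, and the log2 difference was -0.73 (SE 0.18, adjusted p = 0.00954), but with the set term it was -0.14 (adjusted p = 0.862). TRB4 overlaps TIM23-1 on the opposite strand, and whether counting used strand is not given in the sources used here. Exact two-sided permutation tests gave p = 0.1 for both genes, the smallest that 3 libraries against 3 allow.

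The other TRB genes were not called. TRB1 had 10.23, 10.29 and 10.25 FPKM in line 2, against 9.89, 11.16 and 9.76 FPKM in WT (log2 difference 0.0, adjusted p = 0.998; exact permutation p = 1.0). TRB2 differed by -0.09 (adjusted p = 0.547; exact permutation p = 0.5). TRB3 differed by -0.3 (adjusted p = 0.217; exact permutation p = 0.1), with line 2 libraries at 5.38 to 6.25 FPKM and WT libraries at 6.34 to 8.65 FPKM.

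**Figure D1:**
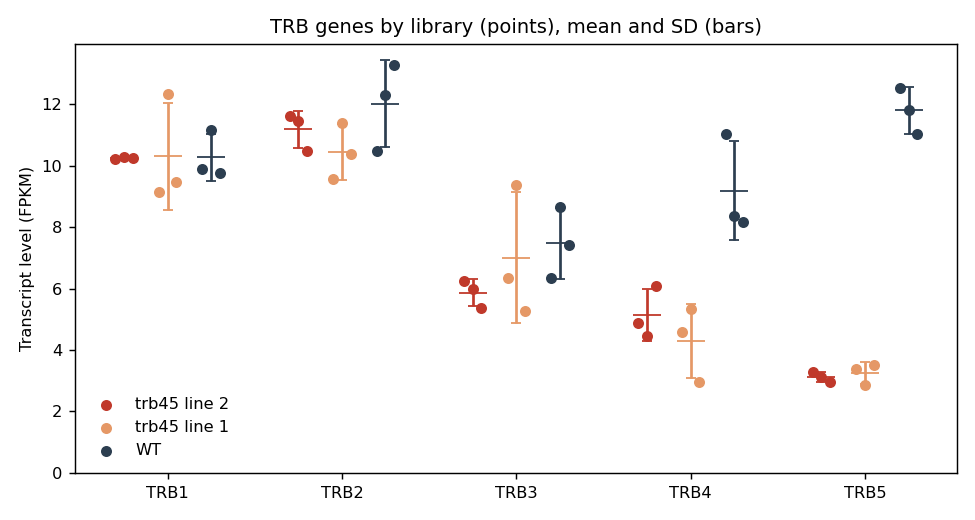
Transcript levels (FPKM) of the 5 TRB genes in trb45 line 2, trb45 line 1 and WT; points are libraries, horizontal marks and bars are the mean and SD of 3 libraries. TRB5 lies at 2.96 to 3.3 FPKM in line 2 and at 11.04 to 12.54 FPKM in WT, while TRB1 and TRB2 overlap between these groups.

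Nothing in the labels says that replicates came from separate cultures, so the p-values measure only the spread between these samples, which may be technical. Across 18700 genes tested, 5710 were called at a limma adjusted p under 0.05, which is 30.5%. Of these, 2791 were higher in line 2 (14.9% of genes tested) and 2919 were lower (15.6%). With a change of at least 2-fold on the log2(FPKM + 1) scale, 232 were higher (1.24%) and 434 lower (2.32%). The libraries of line 2 and WT did not overlap for 9306 genes (49.8%), and 5614 genes (30.0%) were both called and without overlap. The median log2 difference over all genes tested was 0.01. With the set term 127 genes were called, 81 higher and 46 lower. Of the 226 genes that split line 1, 185 were called lower and 0 higher in line 2, and they made up 36.6% of the genes called lower by at least 2-fold.

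The 12 largest rises included the transcription factor genes ZAT10, ERF104, ERF105 and TEM1; the ERF genes and TEM1 are described with their lists. OXS3, a nuclear protein known for tolerance of oxidative and metal stress, had 40.05, 41.27 and 39.98 FPKM in line 2, against 5.07, 3.38 and 6.09 FPKM in WT. Its log2 difference was 2.85 (SE 0.31, adjusted p = 0.000114), and it was still called with the set term (3.01, adjusted p = 0.0353). Line 1 had 36.58 and 48.35 FPKM in replicates 1 and 2 and 37.6 FPKM in replicate 3. ZAT10 (symbol STZ), a zinc finger repressor of abiotic stress responses, had 13.75, 17.74 and 11.91 FPKM in line 2, against 0.98, 1.83 and 1.43 FPKM in WT (2.68, SE 0.29, adjusted p = 0.00012). In line 1 it had 17.59, 18.04 and 19.5 FPKM, so the libraries of both line 1 sets were alike and all above WT; with the set term it was at 2.55 (adjusted p = 0.0566).

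Several of these rises were among abundant transcripts. AT3G15450, annotated as an aluminium-induced protein, had 301.41, 262.28 and 411.11 FPKM in line 2, against 47.85, 42.04 and 65.09 FPKM in WT (2.63, SE 0.27, adjusted p = 7.59e-05). AT2G20670, a DUF506 protein, had 159.92, 151.29 and 149.69 FPKM in line 2, against 27.24, 23.33 and 30.82 FPKM in WT (2.47, adjusted p = 0.000149). Both were still called with the set term, at 2.5 (adjusted p = 0.0425) and 2.76 (adjusted p = 0.0334). AT5G60680, a DUF584 protein, rose by 2.27, to 199.78, 237.31 and 253.71 FPKM in line 2, against 46.85, 42.83 and 50.73 FPKM in WT. AT1G80440, a kelch repeat F-box protein known to target cytokinin response regulators for degradation, rose by 2.21, to 132.19, 145.28 and 150.2 FPKM in line 2, against 30.14, 27.61 and 32.11 FPKM in WT. AT5G60680 and AT1G80440 were not called with the set term, at 1.94 (adjusted p = 0.0509) and 1.95 (adjusted p = 0.151). No library of line 2 overlapped with WT for any of these genes, which the rule for naming them required.

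The remaining large rises were lower in abundance. JRG21, a dioxygenase that hydroxylates jasmonic acid, had 12.47, 11.84 and 6.6 FPKM in line 2, against 0.81, 0.54 and 1.25 FPKM in WT (2.57, adjusted p = 0.00208). PDF1.4, a defensin-like gene, had 16.9, 14.11 and 12.21 FPKM in line 2, against 2.26, 1.79 and 2.05 FPKM in WT (2.34, adjusted p = 0.00106). Line 1 was uneven for both: JRG21 had 4.98 and 16.3 FPKM in replicates 1 and 2 and 35.83 FPKM in replicate 3, and PDF1.4 had 4.46 and 12.46 FPKM and then 22.63 FPKM. Neither was called with the set term, at 0.71 (adjusted p = 0.645) for JRG21 and 0.87 (adjusted p = 0.453) for PDF1.4. AT3G29647, uncharacterized, had 4.82, 6.27 and 7.24 FPKM in line 2, against 0.04, 0.2 and 0.49 FPKM in WT (2.52, adjusted p = 4.12e-05; 3.33 and adjusted p = 0.00221 with the set term). It lay far above WT in every line 1 library too, at 8.47, 13.55 and 5.7 FPKM.

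**Figure D2:**
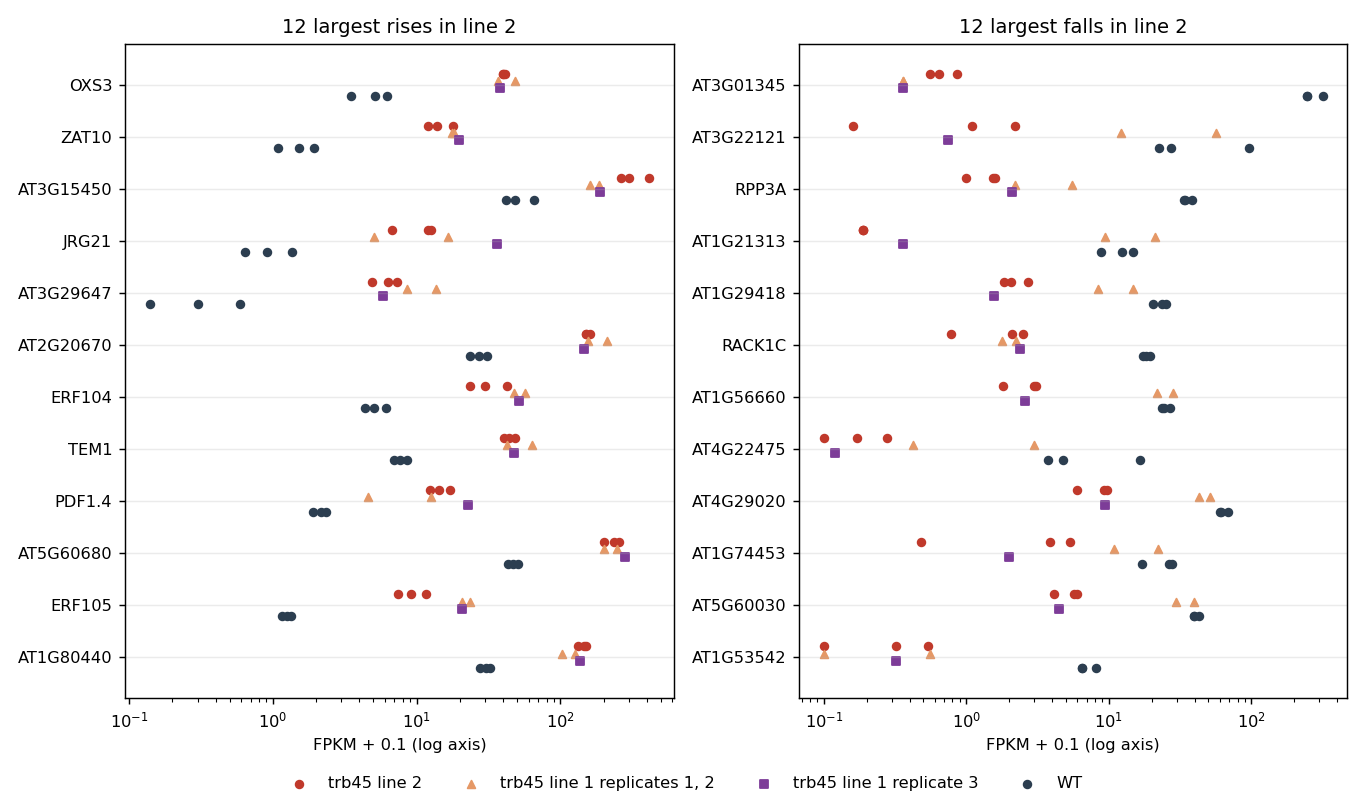
Values by library (FPKM + 0.1, log axis) for the 12 largest rises (left) and 12 largest falls (right) in trb45 line 2; circles are line 2 (red) and WT (dark), triangles are line 1 replicates 1 and 2, squares line 1 replicate 3. Among the rises all line 1 libraries lie above WT, whereas for falls such as AT1G56660 line 1 replicate 3 lies with line 2 (2.49 FPKM) and line 1 replicates 1 and 2 lie with WT (28.1 and 21.79 FPKM).

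Genes induced by darkness or sugar starvation were higher in line 2. These genes are normally raised when carbon runs short, and the TPS members encode trehalose phosphate synthase-like proteins. Of 9 members tested out of 11 listed, 8 rose and 0 fell, beside 14.9% called higher and 15.6% called lower over all genes tested. Their median log2 difference was 0.84, against 0.01 over all genes tested. Like the other lists here, this one was chosen with earlier results of these data known, so its share is a description and no test. ASN1 (DIN6), an asparagine synthetase that stores nitrogen when sugar is low, had 55.19, 48.6 and 89.64 FPKM in line 2, against 16.89, 10.61 and 23.74 FPKM in WT (1.87, SE 0.25, adjusted p = 0.000432). DIN1, a senescence-associated gene, had 95.59, 99.03 and 155.8 FPKM in line 2, against 39.79, 18.06 and 41.63 FPKM in WT (1.84, SE 0.27, adjusted p = 0.000683). Line 1 differed between these genes: ASN1 had 33.42, 37.56 and 32.36 FPKM there and DIN1 40.74, 39.1 and 47.71 FPKM, so DIN1 in line 1 overlapped with WT.

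DIN10, which encodes a raffinose synthase-like enzyme, rose to 154.76, 171.41 and 175.48 FPKM in line 2, against 57.16, 54.53 and 57.41 FPKM in WT (1.55, adjusted p = 0.00122). DRM1, a dormancy-associated gene, rose to 82.18, 88.06 and 107.59 FPKM in line 2, against 37.05, 34.28 and 44.96 FPKM in WT (1.23, adjusted p = 0.000671). TPS8, TPS9, TPS10 and TPS11, named after their values were seen, rose by 0.74 to 0.84 on the log2 scale. DIN2, a glucosidase, was at 1.61, 1.89 and 1.04 FPKM in line 2 and 1.76, 1.78 and 1.68 FPKM in WT (adjusted p = 0.536). Leaving out 1 library at a time left 6 or 7 members called. None of the 8 was called with the set term, where ASN1 had 2.0 (adjusted p = 0.083) and DIN10 1.58 (adjusted p = 0.156).

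In nitrogen assimilation, 3 of 8 genes tested rose and 1 fell, beside 14.9% called higher and 15.6% called lower over all genes tested. ASN1 is also a member here. NIA2, the main nitrate reductase, had 475.06, 516.23 and 521.83 FPKM in line 2, against 308.62, 304.18 and 316.28 FPKM in WT (0.7, SE 0.1, adjusted p = 0.000474). ASN2, another asparagine synthetase, rose by 0.57 (adjusted p = 0.00114). NRT1.1, the dual-affinity nitrate transporter and sensor, fell to 14.06, 14.4 and 12.27 FPKM in line 2, against 21.04, 21.19 and 17.68 FPKM in WT (-0.52, adjusted p = 0.00418). NIA1 was at 206.95, 260.18 and 274.33 FPKM in line 2 and 223.07, 205.21 and 257.02 FPKM in WT, with overlap between the groups (adjusted p = 0.616).

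Members of 3 families of stress-inducible transcription factors were called higher in line 2, to different extents. Of 7 group IX ethylene response factors tested, 5 rose and 0 fell, with a median of 1.2, beside 14.9% called higher over all genes tested. ERF104, a target of the defence kinase MPK6, had 29.91, 42.61 and 23.23 FPKM in line 2, against 4.96, 5.99 and 4.27 FPKM in WT (2.41, SE 0.29, adjusted p = 0.000199; 2.43 and adjusted p = 0.061 with the set term). ERF105 (AT5G51190), known from cold and stress responses, had 9.03, 11.59 and 7.29 FPKM in line 2, against 1.06, 1.15 and 1.23 FPKM in WT (2.24, SE 0.25, adjusted p = 0.000146; 2.31 and adjusted p = 0.0472 with the set term). ERF1A (1.34, adjusted p = 0.000676) and ERF5 (1.2, adjusted p = 0.00576) rose too. All line 1 libraries also lay above WT for these genes, with ERF105 at 20.53, 23.22 and 20.72 FPKM, above line 2.

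Of 8 zinc fingers of the ZAT family tested, 4 rose and 0 fell, beside 14.9% called higher over all genes tested. Their median was 0.4. After ZAT10, the largest rise was that of ZAT6, known from phosphate and metal stress, at 7.4, 10.22 and 7.13 FPKM in line 2, against 3.33, 3.66 and 3.44 FPKM in WT (1.03, adjusted p = 0.00102). ZAT12 rose by 0.8 (adjusted p = 0.0184) and ZAT5 by 0.42 (adjusted p = 0.0331). These 2 calls were less stable: without line 2 replicate 1, line 2 replicate 2 or WT replicate 3 the count of ZAT calls was 2. Of 16 stress-inducible WRKY factors tested, 4 rose, 0 fell and 12 were not called, beside 14.9% called higher over all genes tested. Their median was 0.32. WRKY40, a regulator of basal defence and abscisic acid responses, had 6.76, 6.95 and 5.65 FPKM in line 2, against 0.64, 0.87 and 1.15 FPKM in WT (1.99, SE 0.43, adjusted p = 0.00515). WRKY22, which acts in innate immunity, had 11.76, 11.78 and 14.53 FPKM in line 2, against 3.72, 3.59 and 3.77 FPKM in WT (1.54, SE 0.31, adjusted p = 0.00331). WRKY29 rose by 0.52 and WRKY6 by 0.43. No ZAT or WRKY gene was called with the set term, where WRKY40 had 2.08 (adjusted p = 0.277).

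The touch response genes differed among themselves: TCH3, a calmodulin-like protein, rose by 1.36 (adjusted p = 0.000271) and TCH2, another one, fell by 0.87 (adjusted p = 0.0356), and the other 3 of 5 tested were not called. Called genes made up 40.0% of those tested, beside 30.5% over all genes tested. TCH3 had 17.0, 21.18 and 14.73 FPKM in line 2, against 5.79, 7.08 and 5.71 FPKM in WT. The fall of TCH2 to 11.14, 11.97 and 8.09 FPKM in line 2, against 18.51, 22.6 and 17.79 FPKM in WT, was lost when any of line 2 replicates 1 and 3 or WT replicates 1, 2 and 3 was left out. Salicylate, pathogen defence and jasmonate genes showed few calls. PAD4, a regulator of salicylate signalling, fell (-0.63, adjusted p = 0.00715) and the other 5 of 6 defence genes tested were not called. Of 20 jasmonate genes tested, AOC1 (0.82) and the repressor JAZ6 (0.72) rose, and AOC3 fell (-0.49); AOC genes encode allene oxide cyclases of jasmonate synthesis. The fall of AOC3 was lost without line 2 replicate 3, WT replicate 1 or WT replicate 3.

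Among flowering time genes the calls were all rises of repressors: 5 of 16 tested, out of 22 listed, with a median of 0.19. Called genes made up 31.2% of those tested, near the 30.5% over all genes tested, of which 14.9% were called higher. TEM1 and TEM2 are RAV-family repressors of FT, the mobile flowering signal. TEM1 had 40.42, 48.12 and 43.68 FPKM in line 2, against 6.84, 7.5 and 8.43 FPKM in WT (2.39, SE 0.19, adjusted p = 1.42e-05), and was still called with the set term (2.51, adjusted p = 0.00863). TEM2 had 58.34, 61.59 and 63.5 FPKM in line 2, against 13.82, 13.59 and 15.74 FPKM in WT (2.02, SE 0.24, adjusted p = 0.0002; 1.97 and adjusted p = 0.0715 with the set term). Line 1 was similar, with TEM1 at 42.63, 63.25 and 47.67 FPKM and TEM2 at 60.6, 78.28 and 71.23 FPKM.

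The other rises in this list were MADS-box repressors of flowering. FLC, the vernalization-controlled repressor, had 5.81, 5.18 and 7.4 FPKM in line 2, against 2.37, 2.08 and 3.07 FPKM in WT (1.02, SE 0.19, adjusted p = 0.00218; 0.59 and adjusted p = 0.453 with the set term). Its relative MAF5 had 1.81, 1.58 and 1.58 FPKM in line 2, against 0.21, 0.11 and 0.21 FPKM in WT (1.17, SE 0.1, adjusted p = 3.66e-05; 1.06 and adjusted p = 0.0334 with the set term). MAF4, named after its values were seen, had 1.87, 1.8 and 2.3 FPKM in line 2, against 0.24, 0.86 and 0.66 FPKM in WT (0.93, adjusted p = 0.00103). MAF5 in line 1 had 0.45, 0.52 and 0.61 FPKM, below every line 2 library, and MAF4 0.61, 0.93 and 1.01 FPKM. The flowering promoter SOC1 was lower without being called, at 11.03, 11.69 and 10.02 FPKM in line 2 and 21.67, 15.91 and 20.09 FPKM in WT (-0.75, adjusted p = 0.0617). The repressors SVP (-0.43, adjusted p = 0.16) and TOE2 (-0.28, adjusted p = 0.0832) were also lower without being called. Other uncalled repressors, FLM, MAF2, MAF3, SMZ, SNZ and TOE1, lay at 0.02 to 0.29.

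Abscisic acid response genes were lower in line 2. Abscisic acid is the drought hormone; ABI1, ABI2, HAI1 and HAI2 are phosphatases that its own signal induces and that restrain it. Of 12 genes tested, 8 fell and 0 rose, with a median of -0.73, beside 15.6% called lower over all genes tested. RAB18, a dehydrin used as a marker of the response, had 37.61, 37.86 and 34.73 FPKM in line 2, against 180.72, 119.24 and 162.92 FPKM in WT (-2.02, SE 0.29, adjusted p = 0.000592). ABI2 had 3.85, 3.13 and 3.75 FPKM in line 2, against 8.56, 9.21 and 9.73 FPKM in WT (-1.15, SE 0.21, adjusted p = 0.002; -0.22 and adjusted p = 0.699 with the set term). HAI2 had 0.34, 0.28 and 0.52 FPKM in line 2, against 1.63, 1.72 and 2.11 FPKM in WT (-1.03, SE 0.12, adjusted p = 0.000195). ERD10, another dehydrin, fell by 0.87 (adjusted p = 0.00973).

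Line 1 was split for part of these genes. RAB18 had 64.01 and 124.9 FPKM in line 1 replicates 1 and 2 and 44.29 FPKM in replicate 3, ABI2 6.39 and 9.15 against 3.54 FPKM, and ERD10 122.41 and 120.43 against 62.52 FPKM. HAI2 was low in all 3, at 0.4, 0.67 and 0.39 FPKM. With the set term none of the 12 genes was called; RAB18 had -1.02 (adjusted p = 0.291) and ERD10 0.08 (adjusted p = 0.914). NCED3, the rate-limiting enzyme of abscisic acid synthesis, was not called, at 3.91, 3.58 and 6.12 FPKM in line 2 and 3.23, 1.72 and 2.72 FPKM in WT (0.63, adjusted p = 0.131).

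Heat shock genes were lower as well: 6 of 9 tested fell and 0 rose, beside 15.6% called lower over all genes tested. Their median was -0.68. They encode chaperones, and HSFA2 is the factor that drives many of them. HSP70-4 had 17.64, 20.96 and 17.88 FPKM in line 2, against 48.1, 46.85 and 42.5 FPKM in WT (-1.24, SE 0.14, adjusted p = 0.000125; -0.79 and adjusted p = 0.0917 with the set term). HSP17.6B fell to 3.42, 4.14 and 2.51 FPKM in line 2, against 4.92, 8.89 and 7.02 FPKM in WT (-0.85, adjusted p = 0.00719). HSP90.1 had 7.65, 7.05 and 7.1 FPKM in line 2, against 13.46, 12.66 and 12.5 FPKM in WT (-0.75, adjusted p = 0.00132), and HSFA2 fell by 0.72 (adjusted p = 0.0014). In line 1, HSP70-4 was at 30.48 and 32.75 FPKM in replicates 1 and 2 and 22.85 FPKM in replicate 3, above every line 2 library and below every WT library. None of the 9 was called with the set term.

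Among cold-regulated genes, 3 of 8 tested fell and 1 rose, beside 15.6% called lower and 14.9% called higher over all genes tested. KIN1 had 2.58, 2.34 and 1.7 FPKM in line 2, against 8.67, 9.56 and 7.98 FPKM in WT (-1.61, SE 0.18, adjusted p = 0.000149). KIN1 and KIN2 are near-identical copies, so reads could be split between them. RD29A fell by 0.72 (adjusted p = 0.00279) and the dehydrin COR47 by 0.47 (adjusted p = 0.0366), and the COR47 call was lost in 5 of 6 fits without 1 library. COR413-PM1, a membrane protein, rose to 188.28, 200.62 and 170.19 FPKM in line 2, against 97.7, 97.71 and 95.73 FPKM in WT (0.93, SE 0.15, adjusted p = 0.00106). The transcription factor CBF2 was not called, at 1.54, 1.47 and 1.51 FPKM in line 2 and 0.35, 0.13 and 0.6 FPKM in WT (0.9, adjusted p = 0.0745).

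**Figure D3:**
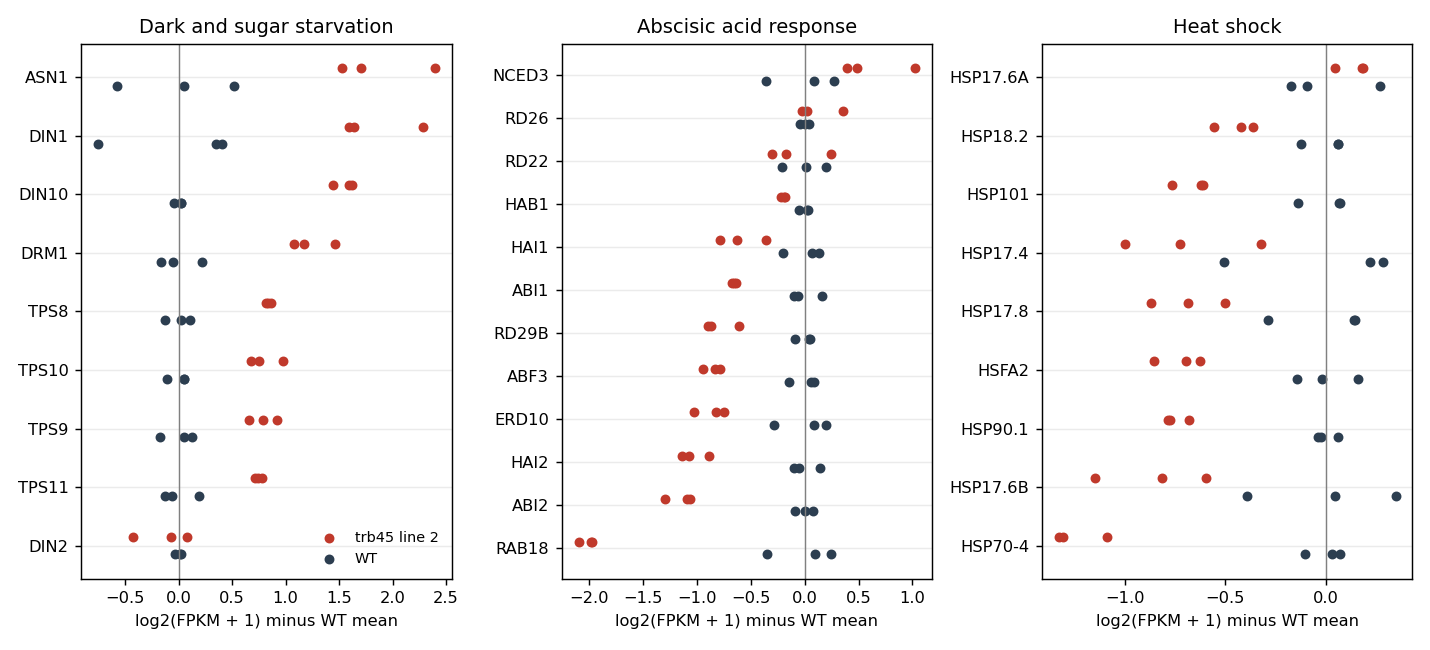
Tested members of the dark and sugar starvation, abscisic acid and heat shock lists; each point is a library, as log2(FPKM + 1) minus the WT mean of that gene, with trb45 line 2 in red above WT in dark. The starvation genes other than DIN2 lie to the right of WT, and RAB18 and HSP70-4 lie farthest to the left in their lists, at mean differences of -2.02 and -1.24.

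Of 22 nuclear photosynthesis genes tested, 9 rose, 0 fell and 13 were not called, with a median of 0.27, beside 14.9% called higher over all genes tested. LHCB1.4, a light-harvesting protein, had 1724.01, 1677.38 and 1859.53 FPKM in line 2, against 1104.54, 870.62 and 1014.62 FPKM in WT (0.82, SE 0.1, adjusted p = 0.000264; 0.92 and adjusted p = 0.0353 with the set term). RBCS1B, a small subunit of Rubisco, had 734.28, 792.52 and 688.67 FPKM in line 2, against 386.41, 464.46 and 409.45 FPKM in WT (0.81, SE 0.15, adjusted p = 0.00188). LHCB6 rose by 0.59 and LHCB1.3 by 0.45. The most abundant Rubisco gene, RBCS1A, was lower without being called, at 23962.6, 24192.76 and 21523.14 FPKM in line 2 and 29562.66, 28803.5 and 27303.33 FPKM in WT (-0.3, adjusted p = 0.0639). LHCB1 and RBCS genes are near-identical copies, so reads could be split between them. Between 4 and 8 members were called when 1 library was left out, 4 without line 2 replicate 3 or WT replicate 2, 5 without line 2 replicate 1 or WT replicate 3, and 4 after quantile normalization, where LHCB1.3 was at -0.0.

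Plasma membrane aquaporins, the water channels of the cell surface, showed 7 rises and 0 falls among 13 tested, with 6 not called. Their median was 0.35, and 14.9% were called higher over all genes tested. PIP2;4, a root aquaporin, had a mean of 22.3 ± 4.82 FPKM in line 2, against 10.2 ± 0.446 FPKM in WT, with no overlap between libraries (SD, n = 3 each; log2 difference 1.04, SE 0.16, adjusted p = 0.000957). PIP2;1 had 1055.53, 1155.16 and 1069.38 FPKM in line 2, against 736.78, 732.86 and 707.27 FPKM in WT (0.59, SE 0.12, adjusted p = 0.00388). PIP1;5 rose by 0.58 and PIP1;3 by 0.55. The 5 root markers did not move together and had a median of -0.22. PYK10, a root beta-glucosidase, rose by 0.6 (adjusted p = 0.00453) and COBL9 of root hairs fell by 0.77 (adjusted p = 0.0164). NAI2, IRT1 and EXPA7 were not called. The part of root share in these values was not tested.

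Auxin genes showed 8 rises and 1 fall among 16 tested, with a median of 0.4. Over all genes tested, 14.9% were called higher and 15.6% lower. IAA29, an auxin-responsive repressor, had 2.18, 2.83 and 4.74 FPKM in line 2, against 1.43, 1.24 and 1.39 FPKM in WT (0.81, adjusted p = 0.00933). GH3.3, an enzyme that conjugates auxin, had 8.01, 5.46 and 8.09 FPKM in line 2, against 3.8, 4.33 and 4.04 FPKM in WT (0.68, adjusted p = 0.00252). IAA4 and IAA3 each rose by 0.62. The efflux carrier PIN4 was called lower (-0.41, adjusted p = 0.0435), a call lost in every fit without 1 library. The count of rises was 5 without any of line 2 replicates 1, 2 and 3 or WT replicate 1, and 4 without WT replicate 3.

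In phosphate starvation genes, 4 of 11 tested rose and 1 fell, beside 14.9% called higher and 15.6% called lower over all genes tested. SPX1, a phosphate sensor, had 19.29, 17.01 and 12.45 FPKM in line 2, against 8.15, 10.28 and 8.15 FPKM in WT (0.79, SE 0.14, adjusted p = 0.00163). PHO1;H1, a phosphate exporter, rose by 0.58 and the phosphatase PAP17 by 0.5; the kinase PPCK1 was called lower (-0.58, adjusted p = 0.0451), a call lost in every fit without 1 library. Of 20 cell cycle and replication genes tested, 3 rose and 0 fell, a share near the 14.9% over all genes tested: MCM4 (0.51) and MCM5 (0.42) of the replicative helicase and PCNA1 (0.5), the sliding clamp. These 3 were not stable, with 0 calls without line 2 replicate 1, line 2 replicate 3 or WT replicate 1, 1 call without WT replicate 2 or WT replicate 3, and 5 without line 2 replicate 2. Of 11 KNOX, CUC, YABBY and WUS-type developmental regulators tested, YAB5 (0.57, adjusted p = 0.00503), KNAT2 (0.51, adjusted p = 0.0181) and STM (0.44, adjusted p = 0.0353) rose and CUC3 fell (-0.35, adjusted p = 0.0459). STM, which maintains the shoot meristem, had 1.78, 1.45 and 2.33 FPKM in line 2, against 0.87, 1.04 and 1.37 FPKM in WT. Without line 2 replicate 1 or line 2 replicate 3 only 1 of the 3 rises was called, and CUC3 was called in just 1 of the 6 fits without 1 library.

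**Figure D4:**
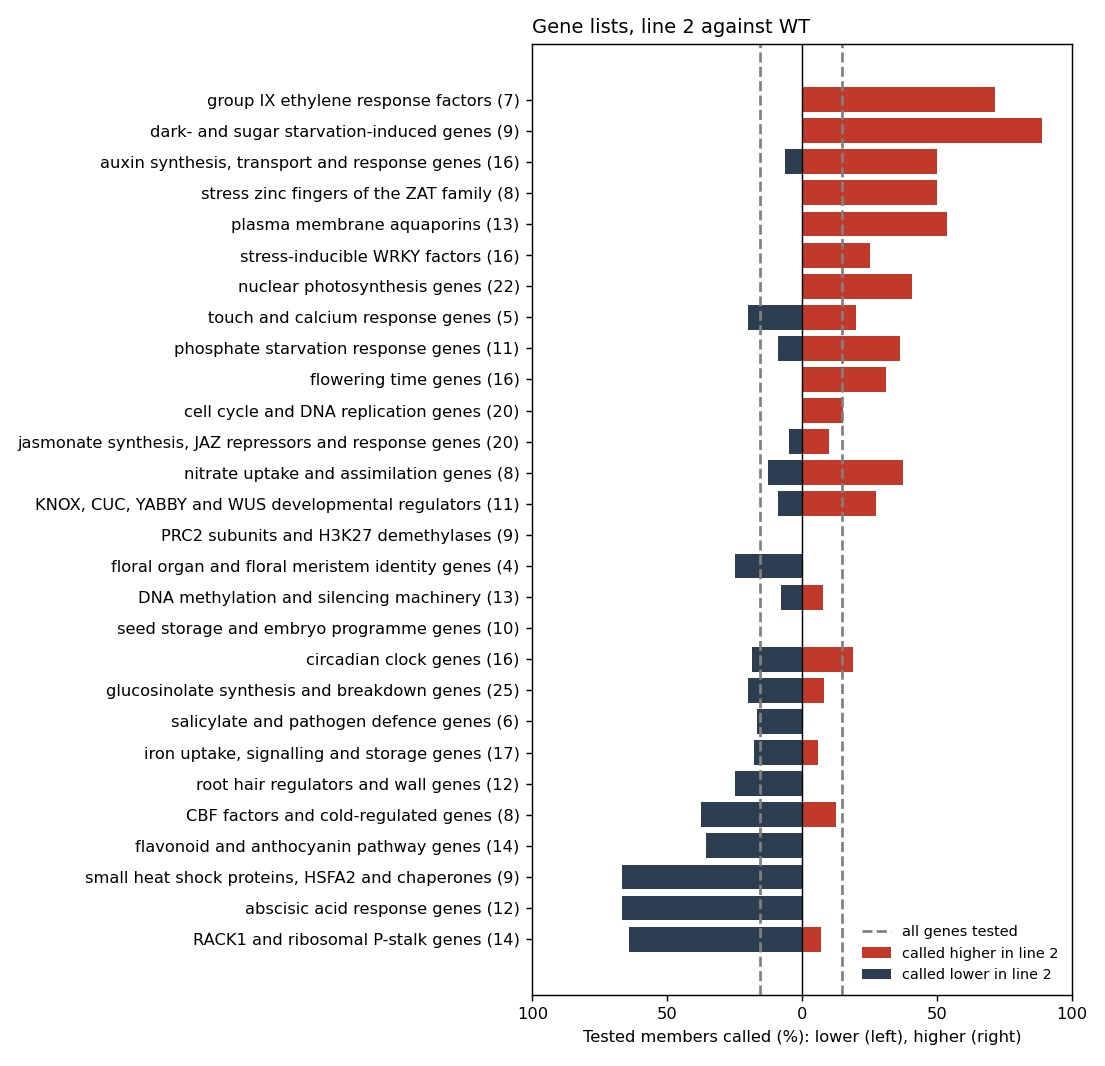
Share of tested members (number in brackets) called higher (red, right) or lower (dark, left) in trb45 line 2 against WT for each gene list, ordered by median log2 difference; dashed lines mark the shares over all genes tested, 14.9% higher and 15.6% lower. Starvation genes lie far to the right, with 8 of 9 called higher, and abscisic acid, heat shock and ribosomal stalk genes far to the left. Lists and members were chosen with earlier results of these data known.

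Of 14 flavonoid and anthocyanin genes tested, 5 fell and 0 rose, with a median of -0.38, beside 15.6% called lower over all genes tested. F3H, flavanone 3-hydroxylase, had 14.8, 12.7 and 11.58 FPKM in line 2, against 23.98, 27.21 and 23.86 FPKM in WT (-0.9, SE 0.1, adjusted p = 0.000128). MYB111, which activates flavonol synthesis, had 0.28, 0.25 and 0.46 FPKM in line 2, against 1.04, 1.27 and 1.51 FPKM in WT (-0.77, adjusted p = 0.000712). CHS, the entry enzyme, and FLS1, flavonol synthase, each fell by 0.65. Without line 2 replicate 1, 8 members were called lower. Of 25 glucosinolate genes tested, 5 fell and 2 rose, the falls at a share nearer to that over all genes tested. MYB29, an activator of aliphatic glucosinolate synthesis, fell by 0.55 (adjusted p = 0.00911) and SOT16, a sulfotransferase, by 0.44 (adjusted p = 0.0128). IGMT1 (1.13, adjusted p = 0.000324) and IGMT4 (1.07, adjusted p = 0.00271), methyltransferases of indole glucosinolates that are near-identical copies, rose. IGMT1 had 27.1, 30.21 and 25.41 FPKM in line 2, against 12.14, 12.06 and 11.91 FPKM in WT. Without line 2 replicate 2, line 2 replicate 3 or any WT replicate, 3 glucosinolate genes were called lower. No flavonoid or glucosinolate gene was called with the set term.

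Of 17 iron genes tested, 3 fell and 1 rose, the falls at a share near the 15.6% over all genes tested, and none was called with the set term. IMA2, a small peptide that promotes iron uptake, had 15.54, 12.04 and 7.45 FPKM in line 2, against 30.18, 39.33 and 43.66 FPKM in WT (-1.65, SE 0.26, adjusted p = 0.000932; -0.81 and adjusted p = 0.363 with the set term). PYE, a factor of the iron deficiency response, fell by 0.86 (adjusted p = 0.00452) and bHLH100 by 1.02 (adjusted p = 0.0478), while the iron store FER4 rose by 0.51 (adjusted p = 0.00761). The value of bHLH100 rests on line 2 replicate 3, at 8.22 FPKM against 26.35 and 29.08 FPKM in replicates 1 and 2, and was -0.47 (adjusted p = 0.141) without it. Line 2 replicate 3 was also the lowest line 2 library for IRT1 and FRO2, the iron transporter and reductase, at 32.23 and 6.11 FPKM, and neither was called. Among 12 root hair genes tested, PRP1 (-1.58, adjusted p = 0.00892), LRX1 (-0.97, adjusted p = 0.0257) and COBL9 (-0.77) fell and 0 rose; the first 2 encode cell wall proteins. PRP1 had 14.46, 23.03 and 5.21 FPKM in line 2, against 34.49, 53.36 and 30.75 FPKM in WT, again lowest in line 2 replicate 3. Root hair calls lower were 1 without line 2 replicate 3 or WT replicate 2 and 5 without line 2 replicate 2.

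Of 16 clock genes tested, 3 were called higher and 3 lower, both shares near those over all genes tested (14.9% higher and 15.6% lower). PRR5, an evening-side repressor, had 16.53, 14.51 and 11.69 FPKM in line 2, against 5.38, 4.67 and 6.75 FPKM in WT (1.21, SE 0.17, adjusted p = 0.000515). PRR7, its relative, rose by 0.57 (adjusted p = 0.000932). The morning factor LHY had 7.91, 8.62 and 7.21 FPKM in line 2, against 15.64, 14.09 and 16.59 FPKM in WT (-0.88, SE 0.11, adjusted p = 0.000324), and ELF4 of the evening complex fell by 0.74 (adjusted p = 0.00356). No clock gene was called with the set term, and ELF4 was at -0.17 (adjusted p = 0.763).

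The largest fall was that of AT3G01345 (chr3:129138-130749), an uncharacterized protein gene. It had 0.76, 0.54 and 0.46 FPKM in line 2, against 247.14, 244.86 and 315.72 FPKM in WT (-7.41, SE 0.11, adjusted p = 2.09e-13; -7.41 and adjusted p = 1.77e-09 with the set term). Line 1 was as low, at 0.26 FPKM in each of its 3 libraries. AT1G53542, a short uncharacterized gene that overlaps a small nucleolar RNA gene, had 0.0, 0.22 and 0.44 FPKM in line 2, against 8.01, 6.43 and 6.38 FPKM in WT (-2.71, SE 0.19, adjusted p = 5.11e-06; -2.73 and adjusted p = 0.00468 with the set term). Its line 1 libraries were at 0.0, 0.46 and 0.22 FPKM, so for both genes each trb45 library lay far below WT. AT3G01345 was at 0.0 FPKM in every trb123 library too, so its fall was not particular to trb45. AT1G53542 was at 9.65, 14.07 and 15.36 FPKM in trb123, above every WT library.

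Genes of RACK1 and the ribosomal P-stalk, the arm of the large subunit that recruits translation factors, held further large falls. Of 14 tested, 9 fell and 1 rose, with a median of -1.1, beside 15.6% called lower over all genes tested. Among the 14, 3 are genes that split line 1. RPP3A (AT4G25890, chr4:13159381-13160565) had 1.43, 0.89 and 1.5 FPKM in line 2, against 33.33, 37.98 and 34.19 FPKM in WT (-4.0, SE 0.23, adjusted p = 2.08e-06; -3.42 and adjusted p = 0.00224 with the set term). It overlaps PUM6 on the opposite strand. RACK1C (AT3G18130, chr3:6210878-6212551), 1 of 3 copies of a ribosome-bound scaffold, had 1.98, 0.68 and 2.41 FPKM in line 2, against a mean of 18.3 ± 1.04 FPKM in WT (SD, n = 3; log2 difference -2.9, SE 0.2, adjusted p = 5.11e-06; -3.08 and adjusted p = 0.00306 with the set term). In line 1, RPP3A had 2.11, 5.4 and 1.98 FPKM and RACK1C 2.14, 1.68 and 2.29 FPKM, low in every library. RACK1A, at 204.27, 156.72 and 230.75 FPKM in line 2 and 198.4, 200.82 and 207.3 FPKM in WT, was not called (adjusted p = 0.833), nor was RACK1B (adjusted p = 0.195).

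Several other stalk genes differed between the line 1 libraries. RPP2B had 52.66, 38.56 and 62.43 FPKM in line 2, against 200.03, 194.98 and 216.18 FPKM in WT (-2.0, SE 0.37, adjusted p = 0.00218). In line 1 it had 182.96 and 162.23 FPKM in replicates 1 and 2 and 47.48 FPKM in replicate 3. RPP1C had 50.97, 40.37 and 63.31 FPKM in line 2, against 153.16, 153.42 and 153.32 FPKM in WT (-1.58, SE 0.33, adjusted p = 0.00385), and in line 1 it had 128.14 and 159.25 FPKM and then 46.5 FPKM. With the set term they had -0.16 (adjusted p = 0.836) and 0.02 (adjusted p = 0.983). RPP0A, a stalk base protein, was the exception that rose, to 16.06, 12.77 and 18.47 FPKM in line 2, against 6.85, 8.99 and 9.19 FPKM in WT (0.84, adjusted p = 0.00138).

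The other 8 of the 12 largest falls were AT3G22121, AT1G21313, AT1G29418, AT1G56660, AT4G22475, AT4G29020, AT1G74453 and AT5G60030. All but AT4G22475 are among the 226 genes that split line 1. AT3G22121, a non-coding RNA gene overlapping the cell wall linker gene CWLP, had 0.99, 0.06 and 2.11 FPKM in line 2, against 22.57, 27.18 and 95.8 FPKM in WT (-4.42, SE 0.94, adjusted p = 0.00452); line 1 had 56.22 and 12.06 FPKM and then 0.64 FPKM in replicate 3. AT4G29020, a glycine-rich protein gene, had 9.59, 5.87 and 9.21 FPKM in line 2, against 68.14, 60.04 and 60.75 FPKM in WT (-2.82, SE 0.43, adjusted p = 0.000897). AT4G22475 had 0.07, 0.0 and 0.18 FPKM in line 2, against 4.67, 3.66 and 16.56 FPKM in WT (-2.84, adjusted p = 0.00137). With the set term none of these 8 was called.

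A minority of the genes called lower, 16.4%, carry a transcript stretch of 100 bases with at least 80% purines, A and G. The share of purines in the richest 100 bases of each transcript was computed for 18613 of the genes tested; such stretches often code for lysine and glutamate runs. The windows of 4 genes that fell and, for contrast, of TEM1, which rose, are printed 5′ to 3′ on the gene's strand from the TAIR10.1 assembly (RefSeq), with the longest unbroken purine run in capitals. AT5G53880 (chr5:21873004-21873103, minus strand) has 94% purines, AT3G24080 (chr3:8695685-8695784, minus) 93%, AT1G56660 (chr1:21239369-21239468, plus) 90%, AT5G60030 (chr5:24172153-24172252, minus) 89% and TEM1 (chr1:8982426-8982525, minus) 64%, and each window lies within 1 coding exon. AT5G53880 and AT3G24080 were chosen after their values were seen.
AT5G53880: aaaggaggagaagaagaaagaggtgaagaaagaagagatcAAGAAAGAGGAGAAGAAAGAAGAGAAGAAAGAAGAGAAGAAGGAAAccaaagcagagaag
AT3G24080: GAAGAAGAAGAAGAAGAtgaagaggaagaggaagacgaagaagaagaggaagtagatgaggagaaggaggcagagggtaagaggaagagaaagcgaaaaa
AT1G56660: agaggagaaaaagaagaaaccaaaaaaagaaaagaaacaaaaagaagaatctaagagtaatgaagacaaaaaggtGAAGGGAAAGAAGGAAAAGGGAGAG
AT5G60030: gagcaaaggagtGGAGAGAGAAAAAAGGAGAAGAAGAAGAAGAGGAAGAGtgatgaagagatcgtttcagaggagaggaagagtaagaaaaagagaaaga
TEM1: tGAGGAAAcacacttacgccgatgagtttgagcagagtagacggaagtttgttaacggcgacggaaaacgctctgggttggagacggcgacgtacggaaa

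AT5G53880, uncharacterized, had 6.98, 7.17 and 7.68 FPKM in line 2, against 39.72, 39.22 and 36.48 FPKM in WT (-2.25, adjusted p = 0.00361), and line 1 had 37.61 and 41.59 FPKM and then 6.53 FPKM in replicate 3. AT3G24080, a KRR1-type ribosome assembly protein, had 6.19, 4.77 and 5.2 FPKM in line 2, against 36.28, 32.91 and 39.65 FPKM in WT (-2.55, adjusted p = 0.000818), and line 1 had 27.6 and 19.16 FPKM and then 5.26 FPKM. AT1G56660 had 2.91, 2.98 and 1.72 FPKM in line 2, against 23.58, 26.65 and 24.29 FPKM in WT (-2.89, adjusted p = 0.00308), and line 1 had 28.1 and 21.79 FPKM and then 2.49 FPKM. AT5G60030 had 5.89, 4.02 and 5.64 FPKM in line 2, against 42.65, 39.53 and 39.68 FPKM in WT (-2.76, adjusted p = 0.00239), and line 1 had 39.58 and 29.69 FPKM and then 4.39 FPKM. In all 4, line 1 replicate 3 lay near line 2 and line 1 replicates 1 and 2 lay well above it; for AT3G24080 both of these were still below every WT library. None of the 4 was called with the set term.

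Over all genes with a transcript in the reference, 1009 (5.42%) had a window of at least 80% purines. The share was 30.5% among genes called lower by at least 2-fold, 16.4% among all called lower, 1.04% among those called higher and 35.8% among the genes that split line 1. Of the 1009 genes, 476 were called lower and 29 higher in line 2, beside 15.6% and 14.9% over all genes tested. Their median difference from WT was -0.36 in line 2, -0.42 in line 1 replicate 3 and -0.11 in line 1 replicates 1 and 2. In the bin above 90%, 33 of 42 genes were called lower and 0 higher, with medians of -0.81 in line 2, -0.77 in line 1 replicate 3 and -0.17 in line 1 replicates 1 and 2. Genes in the bin from 60% to 65% had medians of 0.12 in line 2, 0.08 in line 1 replicate 3 and -0.02 in line 1 replicates 1 and 2. Some falls named in the abscisic acid, heat shock and cold lists had a window of at least 80% purines. These were HAI2 (87%), HSP90.1 (85%), ERD10 (84%), COR47 (84%), RD29A (82%) and HSP70-4 (80%). HSP17.6B (75%), RAB18 (73%), ABI2 (73%), HSFA2 (68%) and KIN1 (67%) did not. The part of purine content in any single change was not tested.

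**Figure D5:**
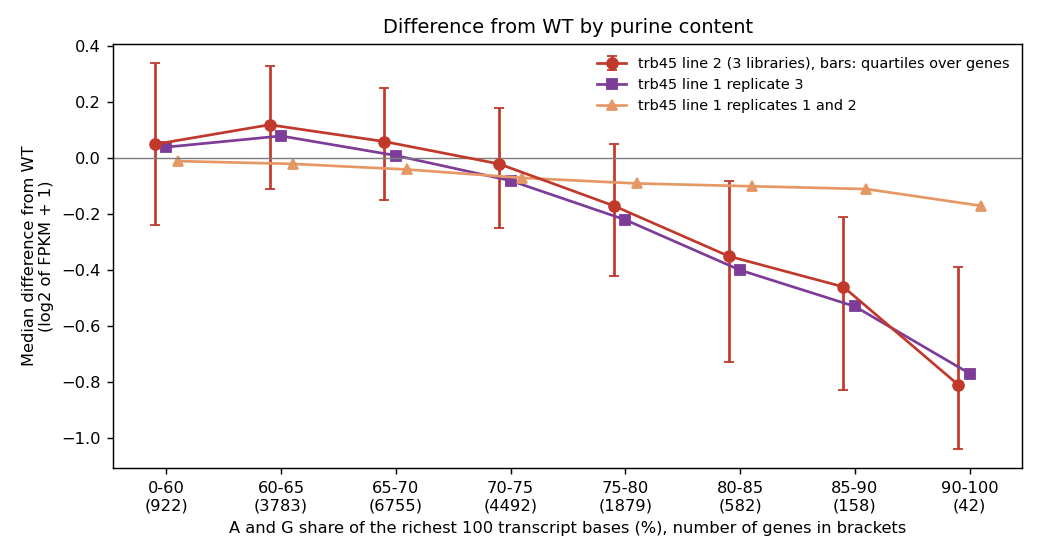
Median difference from WT, as log2(FPKM + 1), by the purine share of the richest 100 transcript bases; red circles are trb45 line 2 with quartiles over genes as bars, squares line 1 replicate 3 and triangles line 1 replicates 1 and 2, with the number of genes per bin in brackets. Line 2 and line 1 replicate 3 fall together to -0.81 and -0.77 in the last bin, which holds 42 genes, while line 1 replicates 1 and 2 reach -0.17.

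Since TRB proteins bind the telobox, promoters from 250 bases before to 50 after the gene start were searched for AAACCCTA on both strands. The motif stood in 6.17% of 37897 annotated promoters and in 5.48% of those of the genes tested. It stood in 42 of 430 promoters of genes called lower by at least 2-fold (9.77%), in 6.81% of those called lower, in 5.11% of those called higher and in 5 of 231 called higher by at least 2-fold (2.16%). None of the 24 genes with the largest rises and falls holds one in this window. The upstream stretches of 4 called list members that hold one, chosen after their values were seen, are printed from TAIR10.1 on the gene's strand with the motif in capitals: ASN1 (chr3:17441454-17441553, minus), TPS9 (chr1:8431951-8432050, plus), TPS10 (chr1:22181865-22181964, minus) and RPP1B (chr4:347294-347393, minus).
ASN1: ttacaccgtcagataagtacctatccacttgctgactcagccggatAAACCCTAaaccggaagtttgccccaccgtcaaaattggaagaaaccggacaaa
TPS9: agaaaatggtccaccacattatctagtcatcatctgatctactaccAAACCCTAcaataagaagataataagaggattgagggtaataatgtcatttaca
TPS10: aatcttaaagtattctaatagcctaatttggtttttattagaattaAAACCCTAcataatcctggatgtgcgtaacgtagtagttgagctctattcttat
RPP1B: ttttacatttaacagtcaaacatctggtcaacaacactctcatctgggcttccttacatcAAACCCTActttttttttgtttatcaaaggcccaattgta

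The motif begins 76 bases before the start of ASN1, 182 before TPS9, 178 before TPS10 and 40 before RPP1B. TPS9 had 22.56, 24.81 and 27.36 FPKM in line 2, against 15.3, 12.3 and 14.5 FPKM in WT, and TPS10 had 13.59, 14.39 and 16.96 FPKM in line 2, against 8.48, 7.51 and 8.49 FPKM in WT. RPP1B had 27.9, 25.46 and 33.97 FPKM in line 2, against 61.21, 59.41 and 65.25 FPKM in WT (-1.07, adjusted p = 0.0029). Genes with the motif thus stood on both sides, with ASN1, TPS9 and TPS10 higher and RPP1B lower in line 2.

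Among lists linked to Polycomb function and silencing, calls were few or absent, beside 30.5% called over all genes tested. The floral organ list, with 1 of 4 called, lay near that share. Of 9 genes for PRC2 subunits and H3K27 demethylases tested, 0 were called, with a median of 0.02. The histone binder MSI1 had 11.42, 9.29 and 12.32 FPKM in line 2 and 8.79, 9.58 and 9.96 FPKM in WT (0.19, adjusted p = 0.228), and the methyltransferase SWN 8.53, 8.53 and 8.09 FPKM in line 2 and 8.37, 8.55 and 7.83 FPKM in WT (0.02, adjusted p = 0.889). Of 13 DNA methylation and silencing genes, the remodeler DDM1 fell to 2.1, 1.8 and 2.26 FPKM in line 2, against 2.91, 3.66 and 3.34 FPKM in WT (-0.49, adjusted p = 0.00387), and NRPD1 of RNA polymerase IV was called higher (0.34, adjusted p = 0.0475), a call lost in 5 of 6 fits without 1 library. Of 4 floral organ genes tested out of 13 listed, SEP1 was called lower (-0.3, adjusted p = 0.041) at under 0.5 FPKM in every library of both groups, a call lost in every fit without 1 library. Of 10 seed storage and embryo genes tested, 0 were called and line 2 replicate 2 stood apart: SESA3, a seed albumin, had 0.32, 29.34 and 0.11 FPKM in line 2 and 0.0, 1.67 and 0.0 FPKM in WT. The seed markers CRA1, SESA3 and OLEO1 summed to 1.2 to 55.74 FPKM in line 2 and 1.42 to 18.14 FPKM in WT.

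Gene families defined by their RefSeq description, 137 with at least 15 genes tested, were ranked after the values were seen and are given as counts, beside 14.9% called higher and 15.6% called lower over all genes tested. Xyloglucan endotransglucosylase/hydrolases, enzymes that loosen and remodel cell walls, had 11 of 23 members called higher (47.8%) and 1 lower. XTH24 had 153.67, 149.13 and 152.03 FPKM in line 2, against 51.23, 61.32 and 52.61 FPKM in WT (1.45, SE 0.12). XTH4 had 169.18, 151.26 and 176.95 FPKM in line 2, against 85.09, 92.27 and 79.68 FPKM in WT (0.94, SE 0.09). Cysteine-rich receptor-like kinases had 10 of 21 called higher and 1 lower, among them CRK11 at 7.28, 7.11 and 7.36 FPKM in line 2, against 3.41, 3.6 and 3.55 FPKM in WT, and small auxin-up RNA genes (SAUR) had 14 of 48 called higher and 4 lower. On the other side, 8 of 15 remorins, membrane raft proteins, were called lower and 0 higher, and 6 of the 15 carry a window of at least 80% purines. Glycine-rich proteins had 13 of 27 called lower and 3 higher; AT1G04800, called lower, had 24.49, 14.11 and 29.57 FPKM in line 2, against 117.69, 100.22 and 103.83 FPKM in WT. HSP20-like chaperones had 10 of 23 called lower and 2 higher.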

How the data were processed

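Gene values were read as the FPKM that the authors deposited, in tables where each block of columns has its own identifiers; the 12 columns of libraries were all used. The columns of line 1 carry commas in 61165 cells in place of decimal points and were converted. Repeated identifiers (174 in the line 2 and line 1 tables, 179 in the others) held identical values and were used once. Per the submitters' processing notes, STAR 2.7.1, DESeq2 and TAIR10 were used; whether counting used strand is not given in the sources used here. The FPKM steps of low genes gave the depth: 77.0% to 85.4% of the low values used lay within 0.25 of a whole read, too few to recover counts, so no count test was run.

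The test was limma 3.58.1 (R 4.3.3) with a trend on log2(FPKM + 1), in 1 fit of 4 group means over 12 libraries, for 18700 genes with at least 1 FPKM in at least 3 libraries. Fold changes on this scale understate those of low genes. Genes were called at a Benjamini-Hochberg adjusted p under 0.05. Data were simulated for line 2 against WT with 18700 genes. On the log2 scale, 66 genes were changed by 0.5, 74 by 1 and 60 by 2. Of these, 37.9%, 90.5% and 98.3% were recovered, with 8 false calls. The part of the library sets in false calls was not tested. Exact permutation tests were used for the TRB genes. Named genes are the TRB genes, the 12 largest rises and falls among called genes without overlap between groups whose mean reached 5 FPKM in either, and up to 4 called members per list by size of change, or the members with the highest means where none was called; others are marked where they appear. The rule for promoters named none, so those printed were chosen afterwards. Members and lists were chosen with earlier results of these data known. Replicate numbers were not used to pair the libraries in the main fit. Sequences came from TAIR10.1 (RefSeq).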

Additional observations from a re-analysis of the deposited data

Results flagged for a closer look

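For 13 of the 115 named genes, line 2 and line 1 differed directly in the limma fit (adjusted p under 0.05 over all genes); the values are line 2 minus line 1 on the log2 scale. Lower in line 2 than in line 1 were AT4G29020 (-1.66), TCH2 (-1.55), ERF105 (-1.15), HSP17.6B (-0.82), ELF4 (-0.6), HSP70-4 (-0.57) and NRT1.1 (-0.43). Higher in line 2 than in line 1 were DIN1 (1.41), MAF5 (0.8), PHO1;H1 (0.58), PRR7 (0.49), PAP17 (0.45) and ASN2 (0.38). Line 1 replicate 3 lay with line 2 for AT4G29020, at 9.35 FPKM, against 50.96 and 42.94 FPKM in line 1 replicates 1 and 2, and was the lowest line 1 library for ELF4 (1.81 FPKM, against 3.37 and 3.02 FPKM). It was also the lowest for TCH2 (18.37 FPKM, against 34.12 and 52.07) and HSP17.6B (4.9 FPKM, against 7.0 and 8.24). The same held for HSP70-4 (22.85 FPKM, against 30.48 and 32.75), but not for ERF105 (20.72 FPKM, against 20.53 and 23.22). Groups of 3 libraries are too small for a test of outlying samples.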

How the results depend on the processing

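Against 5710 genes called, the count was 2757 at a threshold of 0.01 (1260 higher, 1497 lower), 127 with a term for the library sets (81 higher, 46 lower), and 3934 to 4514 without 1 line 2 or WT library. Other settings gave 4363 (mean of at least 5 FPKM) to 6769 (the 6 libraries of line 2 and WT only); without the genes that split line 1, a choice made after seeing the data, it was 5525. Against 666 genes called at 2-fold or more, the count was 1145 with a pseudocount of 0.1 (443 higher, 702 lower), 105 with the set term (66 higher, 39 lower), 507 without the genes that split line 1, and 653 to 712 without 1 library. Without 1 library, TRB5 ranged over -1.68 to -1.59 and TRB4 over -0.84 to -0.6; with the set term TRB4 was -0.14 (adjusted p = 0.862). The cause of these shifts was not tested. Same-numbered line 2 and WT libraries correlated at -0.0112, 0.318 and 0.222 in their deviations from the group means. Differently numbered ones correlated at -0.318 to 0.116. Whether the numbers mark real pairs was not tested. With a replicate block 7358 genes were called in the 6 libraries, against 6769 without it, and TRB4 was -0.73 (limma adjusted p = 0.00316). Of 115 named genes, 15 kept direction and side of the threshold with the set term, 93 lost the call and 7 changed sign: TRB3 0.18, AT1G21313 0.04, TCH2 0.29, COR47 0.11, ERD10 0.08, RPP1C 0.02 and PCNA1 -0.1. TRB1, at 0.0, ranged over -0.03 to 0.06 without 1 library and changed sign at values near 0: -0.0 with median-ratio scaling, -0.0 without line 2 replicate 2, -0.02 without WT replicate 1 and -0.03 without WT replicate 3; LHCB1.3 was -0.0 after quantile normalization. Of 110 named genes called beside TRB4 and TRB5, 87 were called in all 6 fits without 1 library.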

Other observations

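Of the identifiers in the deposited tables, 158 were listed for line 2 and not for WT, and 774 for WT and not for line 2; these genes entered no test, and no level is known for them in the other group. Among the 158, 13 had at least 1 FPKM in every line 2 library, led by PDF1.3, a defensin-like gene, at 6.56, 8.05 and 1.74 FPKM, and including the auxin-induced SAUR23 at 1.93, 1.99 and 3.42 FPKM and SAUR26 at 1.96, 2.14 and 1.8 FPKM. Among the 774, 8 had at least 1 FPKM in every WT library, including AT1G75166 at 6.43, 5.66 and 4.44 FPKM. Of 72 plastid and mitochondrial transcripts tested, 11 were called higher and 7 lower in line 2, and 54 were not called. Over all genes tested, 14.9% were called higher and 15.6% lower. The 72 transcripts had a median log2 difference of 0.04, against 0.01 over all genes tested.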
